A study of Mus musculus with 20 samples.

Results

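The 10 genes described here, of 14776 in the expression table, were grouped as preadipocyte and fibroblast progenitor genes of fat: Pdgfra, Pdgfrb, Dpp4, Pi16, Aebp1, Cpxm1, Plxdc2, Dpt, Fap and Thy1. Some are known progenitor markers and the rest were stromal genes selected on their FPKM, being most clearly lower with SZ-A on the high-fat diet than with saline. The levels of SZ-A against HFD mice are therefore given below as a description without a test. The RNA was that of epididymal white adipose tissue, or eWAT, a visceral fat depot, and came from 20 male C57BL/6J mice. The 6 NC mice received maintenance feed, and the 7 HFD mice were fed a diet in which fat supplied 60% of the energy and were given saline by gavage. The 7 SZ-A mice received the same high-fat diet and Ramulus Mori (Sangzhi) alkaloids (SZ-A), an extract of mulberry twig, by gavage at 400 mg/kg each day. Feeding began at 6 weeks of age, and gavage occupied the last 6 weeks after 14 weeks of diet. All groups were of 1 inbred strain, and no group carried a genetic change. Levels are given as FPKM, in which each gene's reads are divided by its length and by the size of the library. FPKM does not adjust for differences in RNA composition between libraries, which limits comparisons between mice.

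New fat cells arise from stromal cells that carry the receptor PDGFRα. In mouse fat these cells include an interstitial population marked by DPP4 and PI16, which lies around the lobules and gives rise to committed preadipocytes, and fibroblasts that lay down collagen-rich matrix. In obesity the stroma of visceral fat expands and takes up matrix, and part of it turns toward a fibroblast state. In whole tissue, fewer cells of a type and less RNA per cell cannot be told apart, which holds for every value below.

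One NC library, replicate 6, stood apart before any comparison was made. Adipoq, which encodes the fat cell hormone adiponectin, was at 26.6 FPKM in it against 859 to 2278 FPKM in the other 5 NC mice. Adgrg2, a receptor of the epididymal duct, was at 420 FPKM, where the other NC mice had 5.69 to 30.0 FPKM. The epithelial keratin Krt18 was at 452 FPKM, within the range of 5.85 to 454 FPKM of the other NC mice. This library was the lowest of all 20 mice for 7 of the 10 genes and the highest for Pdgfra, at 32.5 FPKM. The 5 libraries with over 100 FPKM of Krt18 were NC replicates 1, 2 and 6 and SZ-A replicates 2 and 7. Beside tests that involve NC mice, some values are also given without NC replicate 6 or without these 5 libraries. They are given for each named gene whose call this ended, or whose called fold change, taken off the log scale, it moved by over 1.5 times. Some other genes have them too. Leaving out the 5 libraries was chosen after seeing the data. The part of neighbouring tissue in these values was not tested. Reads were recovered from FPKM and exon length, and their sums over the listed genes ranged from 13567667 to 19388628 per mouse. In some mice this sum exceeded the library size implied by the same recovery, as in HFD replicate 1 (17216011 against 15406889). The totals are therefore approximate. The 10 genes had from 9 recovered reads (Fap in NC replicate 6) to 11565 (Dpt).

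RefSeq promoter windows for GRCm38.p6, from 250 bases before to 50 bases after the annotated start, were found for 6 of the 10 genes, namely Pdgfra, Dpp4, Pi16, Aebp1, Cpxm1 and Dpt. The windows of Dpp4, the one gene lower in HFD than in NC mice, and of the 3 genes with the largest rises are printed 5′ to 3′ in the direction of the gene, with matches to 5 short motifs in capitals. They lie at chr2:62412182-62412481 (minus strand, Dpp4), chr17:29318632-29318931 (plus strand, Pi16), chr11:5861616-5861915 (plus strand, Aebp1) and chr2:130397580-130397879 (minus strand, Cpxm1). The gene positions given below come from GENCODE M21, whose starts can differ from these. The window of Pi16 lies inside the gene, which begins there at 29317680. Those of Aebp1 and Cpxm1 end before the gene starts given there, 5861947 and 130397574.
Dpp4: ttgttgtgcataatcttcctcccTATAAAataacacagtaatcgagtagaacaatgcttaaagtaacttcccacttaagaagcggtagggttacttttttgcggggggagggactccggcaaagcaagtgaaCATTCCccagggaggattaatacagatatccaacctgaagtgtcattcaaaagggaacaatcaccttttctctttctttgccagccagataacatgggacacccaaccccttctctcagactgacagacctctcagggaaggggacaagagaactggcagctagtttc
Pi16: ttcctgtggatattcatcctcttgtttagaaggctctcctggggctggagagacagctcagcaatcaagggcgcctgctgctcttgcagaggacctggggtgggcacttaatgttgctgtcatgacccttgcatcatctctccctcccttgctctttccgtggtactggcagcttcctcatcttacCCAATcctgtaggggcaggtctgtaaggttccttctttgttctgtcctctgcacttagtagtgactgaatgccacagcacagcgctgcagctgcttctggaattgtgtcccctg
Aebp1: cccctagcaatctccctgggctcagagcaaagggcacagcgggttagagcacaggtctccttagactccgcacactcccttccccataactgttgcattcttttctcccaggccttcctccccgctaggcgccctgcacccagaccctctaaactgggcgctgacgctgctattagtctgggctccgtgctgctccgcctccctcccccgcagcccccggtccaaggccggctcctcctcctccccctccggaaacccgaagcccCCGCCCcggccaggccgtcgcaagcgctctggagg
Cpxm1: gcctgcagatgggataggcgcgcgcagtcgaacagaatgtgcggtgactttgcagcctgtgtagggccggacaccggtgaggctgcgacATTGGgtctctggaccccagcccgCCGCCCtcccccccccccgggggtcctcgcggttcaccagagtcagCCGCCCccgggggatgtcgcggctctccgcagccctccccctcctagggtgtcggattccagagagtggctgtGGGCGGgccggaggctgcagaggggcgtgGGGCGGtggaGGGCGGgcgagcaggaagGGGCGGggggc
Searched on both strands were the TATA box (TATAAA, in 13.6% of all 32851 windows), the CCAAT box (CCAAT, 37.4%), the GC box bound by SP1-type factors (GGGCGG, 35.7%), a core letter string of TEAD sites (GGAATG, 14.7%) and a SMAD-type string (CAGACA, 21.0%). No matches overlapped in the 4 windows shown. Dpp4 held a TATA box and the TEAD string, Pi16 a CCAAT box, Aebp1 a GC box, and Cpxm1 6 GC boxes and a CCAAT box. The window of Dpt held the TATA box string at 13, after the annotated start, and that of Pdgfra none of the 5 strings. The SMAD-type string was in 0 of the 6 windows. Cpxm1 and Aebp1 had GC contents of 72.7% and 66.3%, above the upper quartile of 61.7% over all windows, whereas Pi16 was near the median of 52.7%, with 53.3%. Dpp4, with 45.3%, was below the lower quartile of 45.7%. These matches describe letters in the windows only.

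**Figure D1:**
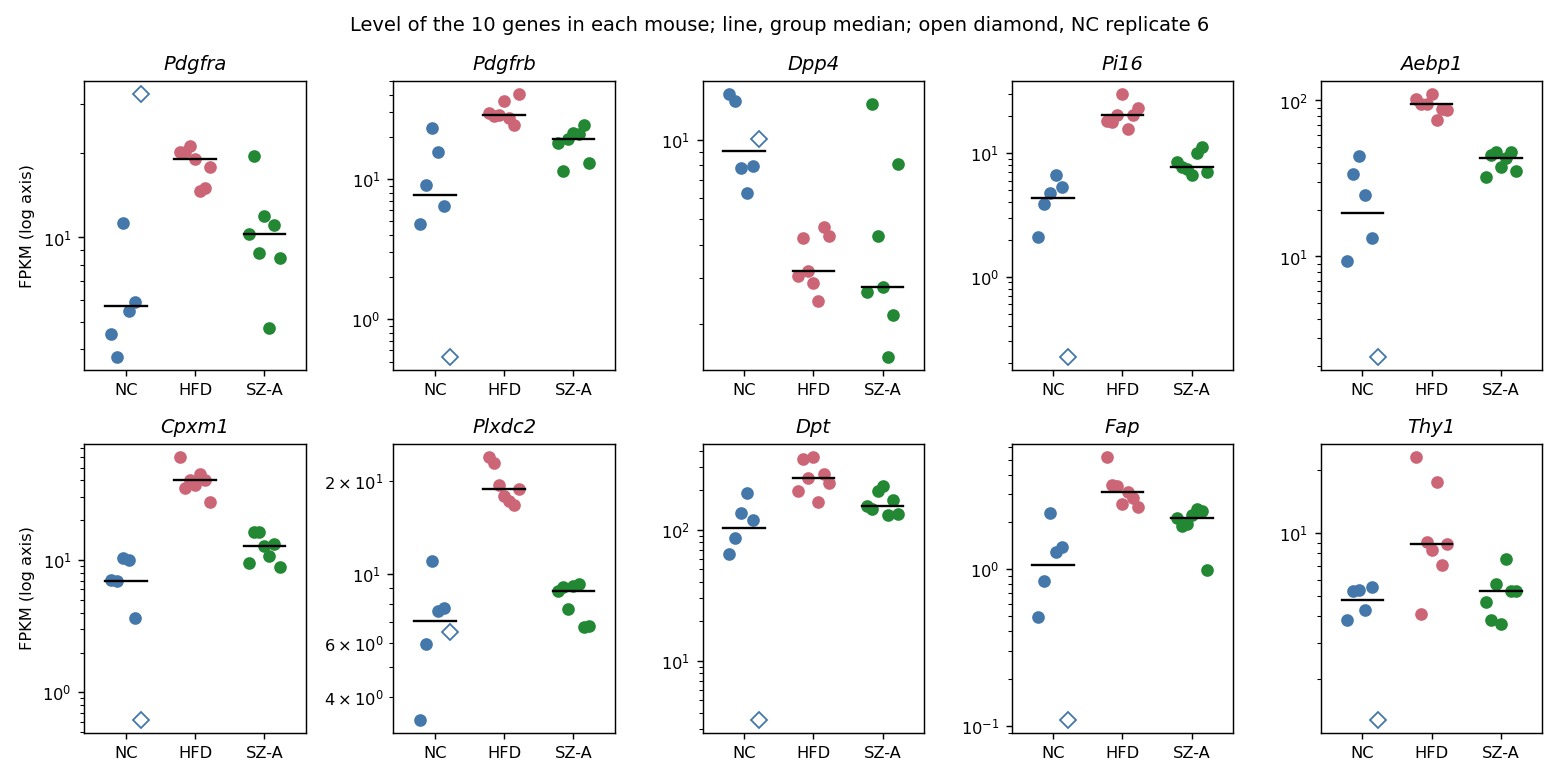
Level of each of the 10 genes in each mouse, in FPKM on a log axis that differs between panels, for NC, HFD and SZ-A mice. Lines are group medians and the open diamond is NC replicate 6. Aebp1 was at 75.3 to 110 FPKM in HFD mice, above all NC and SZ-A mice, whereas Dpp4 had its highest median, 9.01 FPKM, in NC mice.

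Pdgfra and Pdgfrb encode the PDGF receptors α and β, tyrosine kinases that pass the signal of platelet-derived growth factors into stromal and mural cells. Pdgfra (chr5:75152292-75198215, plus strand, GRCm38) ranged from 3.74 to 32.5 FPKM in NC mice with a median of 5.69 FPKM. It ranged from 14.6 to 21.2 FPKM in HFD mice (median 19.1) and from 4.75 to 19.5 FPKM in SZ-A mice (median 10.3). HFD and NC mice overlapped only through NC replicate 6, since the other 5 NC mice did not exceed 11.3 FPKM. Between HFD and NC mice the mean of log2(FPKM + 1) rose by 1.11 (95% CI 0.32 to 1.90, adjusted p = 0.0273 by limma), and by 1.49 without NC replicate 6 (adjusted p = 5.62e-05). The call was lost without NC replicate 1, 2, 4 or 5, with adjusted p from limma of 0.0631, 0.0654, 0.0561 and 0.0523. Each of those fits kept NC replicate 6.

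Pdgfrb (chr18:61045150-61085061, plus strand), which pericytes and other mural cells carry as well as fibroblasts, was at 0.539 to 23.2 FPKM in NC mice (median 7.76). Its range was 24.2 to 40.4 FPKM in HFD mice (median 28.6) and 11.5 to 24.5 FPKM in SZ-A mice (median 19.3). HFD mice lay above every NC mouse, and only SZ-A replicate 6, with 24.5 FPKM, reached the HFD range. The rise from NC to HFD mice was 1.96 on the log2 scale (95% CI 0.92 to 3.0, adjusted p = 0.00566), and 1.48 without NC replicate 6 (adjusted p = 0.00134, limma). It was 1.11 without the 5 libraries high in Krt18 (adjusted p = 0.00969, limma). The summed level of 9 mural cell markers ran from 23.3 to 597 FPKM in NC mice, from 58.3 to 201 FPKM in HFD mice and from 137 to 282 FPKM in SZ-A mice. Of those 9 genes, 1 (Cspg4) rose and 2 (Myh11 and Des) fell in HFD mice, whereas 4 fell without NC replicate 6 and 6 without the 5 libraries high in Krt18.

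Dpp4 and Fap encode related membrane serine peptidases that cut after proline, and the genes are neighbours on chromosome 2, with 88711 bases between them. Dpp4 (chr2:62330073-62412231, minus strand) was the only one of the 10 genes that was lower in HFD mice. It ranged from 6.26 to 14.9 FPKM in NC mice (median 9.01), from 2.44 to 4.66 FPKM in HFD mice (median 3.18) and from 1.5 to 13.7 FPKM in SZ-A mice (median 2.77). All HFD mice lay below all NC mice, and 5 of the 7 SZ-A mice did so too. The change from NC to HFD mice was -1.26 on the log2 scale (95% CI -1.69 to -0.84, adjusted p = 2.18e-04), and -1.25 without NC replicate 6 (adjusted p = 3.39e-04, limma).

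The 2 SZ-A mice with high Dpp4 were replicates 2 (13.7 FPKM) and 7 (8.10 FPKM), and they also had the highest Krt18 of the SZ-A group, 119 and 168 FPKM. Over all 20 mice, the 5 libraries with over 100 FPKM of Krt18 had 8.10 to 14.9 FPKM of Dpp4. Without these libraries the change of Dpp4 from NC to HFD mice was -0.89 (95% CI -1.26 to -0.53, adjusted p = 0.00141 by limma), and the 3 remaining NC mice, with 6.26 to 7.94 FPKM, still lay above all HFD mice. Dpp4 is also made by epithelia and T cells, and their part in its level was not tested.

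Fap (chr2:62500943-62574075, minus strand), the fibroblast activation protein, had the lowest mean of the 10 genes in each group. It lay between 0.109 and 2.28 FPKM in NC mice (median 1.06), 2.50 and 5.20 FPKM in HFD mice (median 3.09), and 0.990 and 2.43 FPKM in SZ-A mice (median 2.12). HFD mice overlapped with neither other group. Fap rose by 1.12 on the log2 scale from NC to HFD mice (95% CI 0.64 to 1.59, adjusted p = 0.00132), and by 0.96 without NC replicate 6 (adjusted p = 0.00119, limma). The rise was 0.69 without the 5 libraries high in Krt18 (adjusted p = 0.00942, limma). The neighbouring peptidases thus differed in direction between the same mice, Dpp4 being lower and Fap higher in all 7 HFD than in all 6 NC mice.

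Aebp1 and Cpxm1 encode secreted proteins with a carboxypeptidase-like domain. AEBP1, also called ACLP, binds collagen and is abundant in fibrotic matrix, and CPXM1 binds collagen and is made by preadipocytes. Aebp1 (chr11:5861947-5872088, plus strand) ranged from 2.27 to 44.3 FPKM in NC mice (median 19.0), from 75.3 to 110 FPKM in HFD mice (median 94.2) and from 32.2 to 46.8 FPKM in SZ-A mice (median 42.7). The HFD mice stood apart from both other groups, which overlapped with each other. Aebp1 rose by 2.50 on the log2 scale in HFD over NC mice (95% CI 1.47 to 3.54, adjusted p = 0.00103), and by 2.04 without NC replicate 6 (adjusted p = 1.44e-04, limma). Without the 5 libraries high in Krt18 the rise was 1.87 (adjusted p = 2.72e-04, limma).

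Cpxm1 (chr2:130390775-130397574, minus strand) had the largest rise of the 10 genes. Its level was 0.621 to 10.3 FPKM in NC mice (median 6.99), 27.3 to 60.3 FPKM in HFD mice (median 40.0) and 8.91 to 16.3 FPKM in SZ-A mice (median 12.7). Means were 6.43 ± 3.75 FPKM (SD, n = 6) in NC and 40.6 ± 10.2 FPKM (SD, n = 7) in HFD mice, a ratio of 6.32. On the log2 scale the rise was 2.70 (95% CI 1.87 to 3.53, adjusted p = 1.11e-04), and 2.31 without NC replicate 6 (adjusted p = 3.65e-06, limma).

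Pi16 (chr17:29317680-29330593, plus strand), a membrane-anchored member of the CAP family that marks interstitial progenitors together with Dpp4, took the direction opposite to Dpp4. It ranged from 0.224 to 6.65 FPKM in NC mice (median 4.32), from 15.7 to 30.1 FPKM in HFD mice (median 20.4) and from 6.70 to 11.3 FPKM in SZ-A mice (median 7.70). The groups did not overlap in any of the 3 comparisons, although the lowest SZ-A mouse, at 6.70 FPKM, was close to the highest NC mouse, at 6.65 FPKM. From NC to HFD mice Pi16 rose by 2.37 on the log2 scale (95% CI 1.61 to 3.12, adjusted p = 1.53e-04), and by 2.01 without NC replicate 6 (adjusted p = 6.14e-06, limma). Without the 5 libraries high in Krt18 it was 1.72 (adjusted p = 2.37e-05, limma). Exons of Pi16, Dpp4 and Pdgfra overlap annotated antisense genes, and the strand setting of the counting is not given in the sources used here, so reads of those antisense genes may be included for these 3 genes.

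Plxdc2 (chr2:16356304-16755839, plus strand), a membrane protein with a plexin-like domain, was at 3.38 to 11 FPKM in NC mice (median 7.06) and 16.7 to 23.8 FPKM in HFD mice (median 18.7). SZ-A mice, with 6.72 to 9.27 FPKM (median 8.78), lay within the NC range. Its rise in HFD mice was 1.40 (95% CI 0.99 to 1.81, adjusted p = 7.09e-05) and did not rest on NC replicate 6, without which it was also 1.40 (adjusted p = 1.10e-04, limma).

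Dpt (chr1:164796644-164824266, plus strand), which encodes the matrix protein dermatopontin and is expressed widely in fibroblasts, had the highest level of the 10 genes in each group. NC mice ranged from 3.54 to 190 FPKM (median 102), HFD mice from 163 to 360 FPKM (median 247) and SZ-A mice from 128 to 215 FPKM (median 151). HFD and NC mice overlapped, since NC replicate 4 with 190 FPKM exceeded HFD replicate 5 with 163 FPKM. The rise from NC to HFD mice was 1.93 (95% CI 0.46 to 3.40, adjusted p = 0.0370 by limma), and 1.16 without NC replicate 6, in which Dpt was at 3.54 FPKM (95% CI 0.58 to 1.74, adjusted p = 0.00354). Without the 5 libraries high in Krt18 it was 0.78 (adjusted p = 0.0290, limma). Without any one of NC replicates 1 and 2 or HFD replicates 1, 2, 3, 4, 6 and 7 the call was lost, with adjusted p of 0.0506 to 0.0653 from limma.

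Thy1 (chr9:44043384-44048579, plus strand) encodes a lipid-anchored surface protein of fibroblasts that mouse T cells carry as well. It ranged from 1.28 to 5.53 FPKM in NC mice (median 4.79), from 4.12 to 23.1 FPKM in HFD mice (median 8.86) and from 3.68 to 7.55 FPKM in SZ-A mice (median 5.26). HFD replicates 1 (23.1 FPKM) and 5 (17.5 FPKM) were high, and HFD replicate 2, at 4.12 FPKM, was within the NC range. Thy1 rose by 1.11 on the log2 scale (95% CI 0.37 to 1.86, adjusted p = 0.0198), by 0.89 without NC replicate 6 (adjusted p = 0.0322), and by 0.84 without the 5 libraries high in Krt18, where it did not pass (adjusted p = 0.101, limma). The 6 T cell markers read here summed to 1.70 to 5.42 FPKM in NC mice, 2.94 to 7.98 FPKM in HFD mice and 1.77 to 6.07 FPKM in SZ-A mice, and 0 of the 6 passed the test between HFD and NC mice. HFD replicate 1 had the highest sum, 7.98 FPKM, as well as the highest Thy1, Fap, Cpxm1 and Plxdc2 of all mice. Among HFD mice it also had the highest macrophage marker sum (3476 FPKM). Its adipocyte (1331 FPKM), mural cell (58.3 FPKM) and endothelial (84.7 FPKM) marker sums were the lowest of that group. The part of T cells in Thy1 was not tested.

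High-fat feeding was thus accompanied by higher levels of 9 of the 10 genes and a lower level of Dpp4. At an adjusted p under 0.05, 9 of the 10 genes rose in HFD over NC mice, where 21.0% of the 14706 genes tested rose, and 1 fell, where 20.1% fell. Under the stricter call of the study's methods, which also asks for a log2 fold change above 1.5, 5 rose (Pdgfrb, Pi16, Aebp1, Cpxm1 and Dpt; 5.43% of all genes) and 0 fell (2.54%). Without NC replicate 6 the same 9 rose and the same 1 fell, while 22.6% of all genes rose and 22.6% fell, and the stricter call then held for 3 genes, Pi16, Aebp1 and Cpxm1. The 2 groups did not overlap for 7 of the 10 genes, compared with 20.5% of all genes. The median log2 difference was 1.67 over the 10 genes and -0.04 over all genes tested. HFD mice also entered the contrast by which the genes were chosen, so this comparison is not independent of that choice. Of 10 macrophage markers, 10 rose in HFD mice, with summed levels of 57.6 to 382 FPKM in NC and 1902 to 3476 FPKM in HFD mice. Whether the change in macrophage content moved the levels of the 10 genes was not tested.

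**Figure D2:**
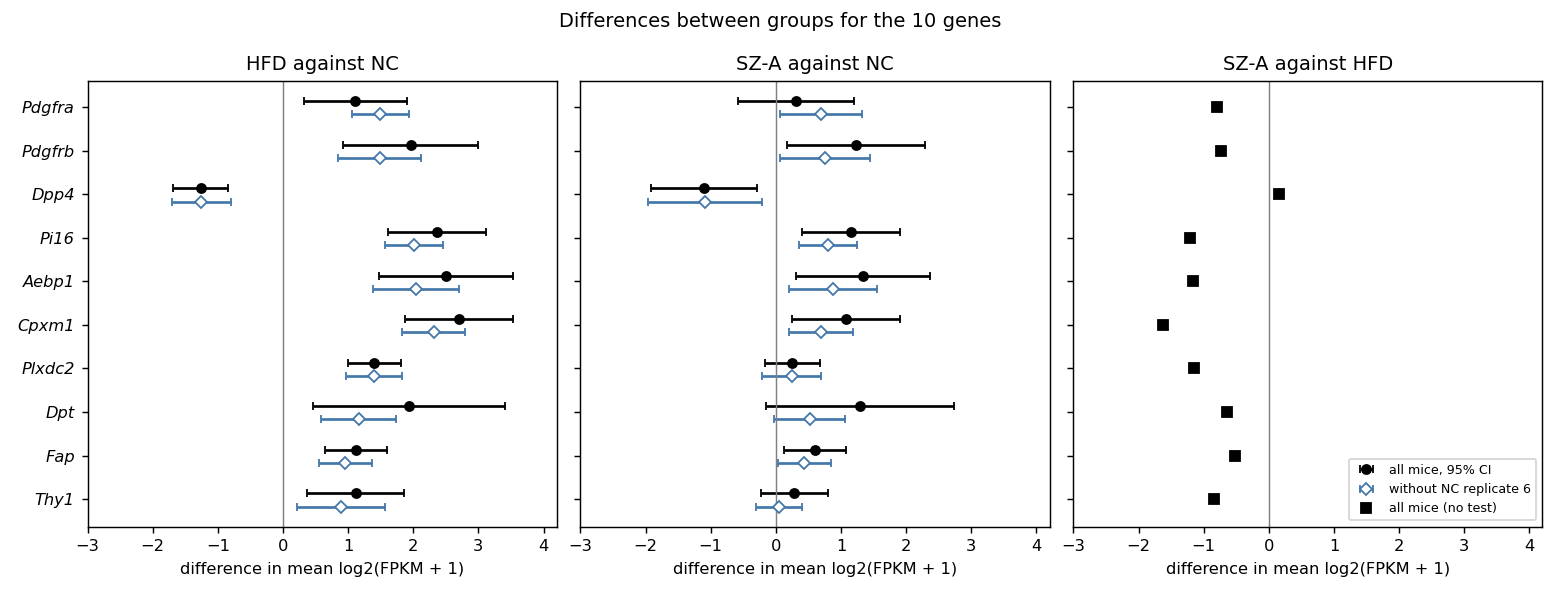
Difference between groups in mean log2(FPKM + 1) for each gene, with 95% confidence intervals from limma for HFD against NC and SZ-A against NC. Black circles use all mice and open blue diamonds leave out NC replicate 6. Black squares, SZ-A against HFD, have no test because that contrast entered the choice of the genes. Differences of HFD against NC ran from -1.26 (Dpp4) to 2.70 (Cpxm1), and those of SZ-A against HFD from -1.62 (Cpxm1) to 0.16 (Dpp4).

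After 6 weeks of SZ-A on the high-fat diet, 0 of the 10 genes differed from NC mice past an adjusted p of 0.05 by limma, in either direction. Among the 14718 genes tested, 4.15% were higher and 0.455% lower in SZ-A than in NC mice (1.73% and 0.0544% by the stricter call). At an unadjusted p under 0.05, 5 of the 10 were higher (Aebp1, Cpxm1, Fap, Pdgfrb and Pi16) and 1 lower (Dpp4), beside 12.6% and 6.46% of all genes. A fit with all 3 groups called 4 of the 10 genes, with Aebp1, Cpxm1 and Pi16 higher and Dpp4 lower, beside 7.83% of all genes higher and 2.54% lower. By voom on recovered reads 0 of the 10 were called, beside 3.81% higher and 0.340% lower. The largest differences were 1.34 for Aebp1 (95% CI 0.31 to 2.37, adjusted p = 0.139) and 1.29 for Dpt (95% CI -0.16 to 2.74, adjusted p = 0.318). Without NC replicate 6 they were 0.87 and 0.52. The intervals of Plxdc2 (-0.17 to 0.67), Thy1 (-0.24 to 0.79) and Pdgfra (-0.58 to 1.2) included 0, and their widths leave differences of that size possible. Pi16 was the 1 gene without overlap between the groups (3.57% of all genes), with a difference of 1.15 (95% CI 0.40 to 1.90, adjusted p = 0.0822). Without NC replicate 6 the difference of Pi16 was 0.80 and passed (adjusted p = 0.0417 by limma). The difference of Dpp4 was -1.10 (95% CI -1.91 to -0.29, adjusted p = 0.122), and -1.36 without SZ-A replicate 2, where it passed (adjusted p = 0.0214 by limma). It also passed without the 5 libraries high in Krt18, with -1.22 (adjusted p = 0.0488 by limma). Without NC replicate 3 Fap was 0.75 higher and passed (adjusted p = 0.0451 by limma). SZ-A mice entered the contrast that chose the genes too.

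Compared with HFD mice, SZ-A mice had lower mean levels of 9 of the 10 genes. Part of the genes were chosen for that direction, so nothing is read from this count. Cpxm1 differed most, with 12.5 ± 3.0 FPKM (SD, n = 7) in SZ-A mice, 0.308 times the HFD mean and -1.62 on the log2 scale. Pi16 (-1.21), Aebp1 (-1.17) and Plxdc2 (-1.15) followed, with 0.402, 0.441 and 0.421 times the HFD mean. Thy1 (-0.84), Pdgfra (-0.80), Pdgfrb (-0.73), Dpt (-0.64) and Fap (-0.52) differed less on this scale. Their means were 0.462, 0.584, 0.600, 0.629 and 0.604 times the HFD mean, in that order. Dpp4 had a higher mean, 1.42 times the HFD mean and 0.16 on the log2 scale, though its median was lower (2.77 against 3.18 FPKM). Its difference was -0.32 without the 5 libraries high in Krt18. HFD and SZ-A mice did not overlap for 5 genes, Pi16, Aebp1, Cpxm1, Plxdc2 and Fap (6.08% of all genes). Nothing is read from this, since this contrast entered the choice of the genes. Of the 7 SZ-A mice, 1 reached the HFD range for Pdgfra, 1 for Pdgfrb, 3 for Dpt and 5 for Thy1. For Pdgfra this was SZ-A replicate 2 with 19.5 FPKM, the same library that was high in Dpp4 and Krt18.

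The order of the 10 genes by mean level was compared between diets. In NC mice Dpt (mean 99.8 FPKM) and Aebp1 (21.3 FPKM) were followed by Pdgfra, Dpp4 and Pdgfrb at 10.6, 10.2 and 9.96 FPKM, neighbours that did not differ beyond their spread, since Pdgfra exceeded Dpp4 in 2 of 6 mice and Dpp4 exceeded Pdgfrb in 4 of 6. The third place of Pdgfra rested on NC replicate 6. Over the other 5 NC mice its mean was 6.19 FPKM, in the seventh place, which it also held in HFD mice. In HFD mice the order was Dpt (259 FPKM), Aebp1 (92.8), Cpxm1 (40.6), Pdgfrb (30.7) and Pi16 (20.9), each above the next in at least 6 of 7 mice. Pi16, Plxdc2 (19.5 FPKM) and Pdgfra (18.3 FPKM) were close, with Pi16 above Plxdc2 in 4 of 7 mice. Dpp4 moved from the fourth to the ninth place, where it exceeded Fap in 4 of 7 HFD mice. In SZ-A mice Dpt (163 FPKM), Aebp1 (40.9) and Pdgfrb (18.4) led, each above the next gene in at least 6 of 7 mice.

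Since Pdgfra is the broadest marker of these stromal cells, each other gene was also set against Pdgfra within the same mouse. HFD mice entered the contrast by which the genes were chosen, in which Cpxm1 differed most. The tests of these differences are therefore not independent of that choice. In NC mice Dpp4 was 0.27 ± 1.23 (SD, n = 6) above Pdgfra on the log2(FPKM + 1) scale, and in HFD mice it was -2.10 ± 0.34 (SD, n = 7) relative to it. The change of -2.37 in Dpp4 relative to Pdgfra had p = 0.00233 by a two-sided exact permutation test, where 0.00117 is the smallest p the design allows, and an adjusted p of 0.0210 over the 9 differences. It was -2.75 without NC replicate 6 (adjusted p = 0.0227, exact permutation test) and -2.12 without the 3 NC libraries high in Krt18. With 3 NC and 7 HFD mice the smallest p of the exact permutation test is 0.0167, which Dpp4 had. At least 4 of the 9 differences would need that p for any to pass, so this design cannot say whether the call holds. Cpxm1 rose by 1.59 relative to Pdgfra (adjusted p = 0.0367, exact permutation test) and by 0.82 without NC replicate 6 (adjusted p = 0.0530). That call was also lost without any one of NC replicates 1, 3 and 5 or HFD replicates 1, 3, 4, 5 and 6, with adjusted p up to 0.0795 by the exact permutation test. The other 7 differences did not pass, with adjusted p of 0.126 to 0.983 by the exact permutation test. Without NC replicate 6, the difference of Fap relative to Pdgfra was -0.54 (adjusted p = 0.0455, exact permutation test), and without NC replicate 2 Aebp1 was 1.79 higher (adjusted p = 0.0227, exact permutation test).

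**Figure D3:**
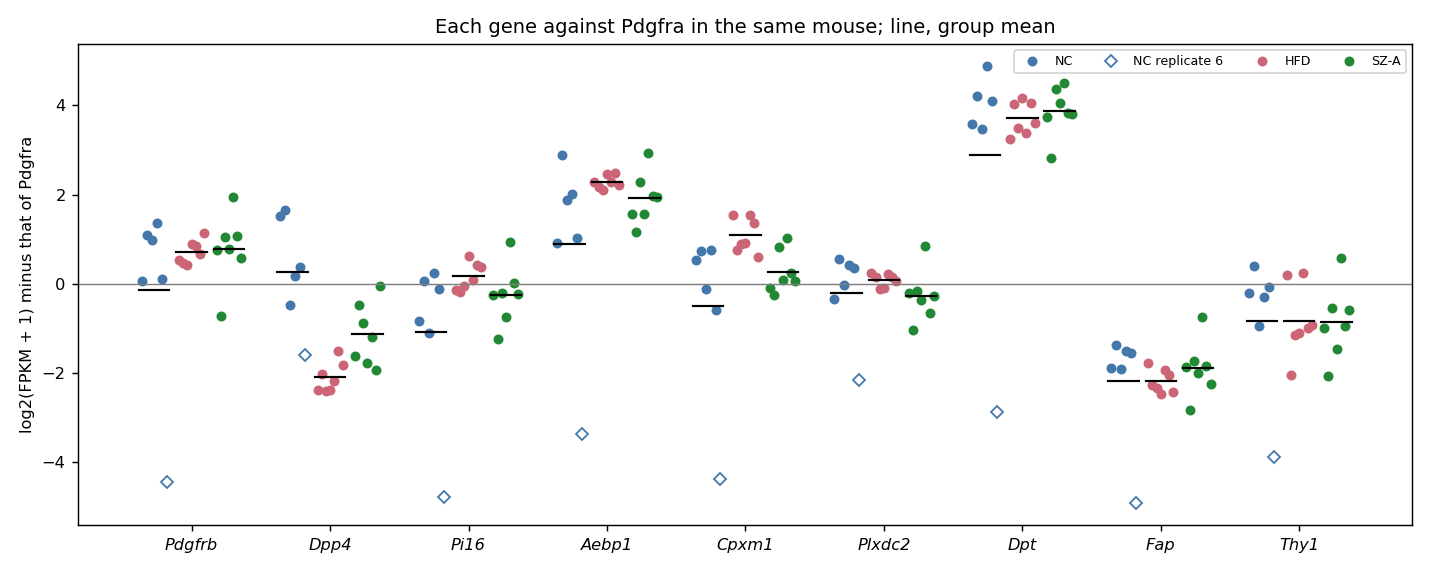
log2(FPKM + 1) of each gene minus that of Pdgfra in the same mouse; points are mice, lines are group means and the open diamond is NC replicate 6. The mean of Dpp4 was 0.27 for NC mice, -2.10 for HFD mice and -1.14 for SZ-A mice, while that of Fap was -2.19, -2.18 and -1.90.

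Other cell types differed between the groups beside these genes. The summed level of 7 adipocyte markers was 233 to 9696 FPKM in NC mice, lowest in replicate 6. It was 1331 to 5645 FPKM in HFD mice, lowest in replicate 1, and 3673 to 10554 FPKM in SZ-A mice. Of these 7 genes, 1 (Lep) rose and 0 fell in HFD over NC mice, beside 21.0% and 20.1% of all genes. When NC replicate 6 was left out, 1 rose and 4 fell (median -0.99), beside 22.6% and 22.6%. Leaving out the 5 libraries high in Krt18 also gave 1 rise and 4 falls (median -1.23). Between SZ-A and HFD mice 0 of 7 passed, and 5 rose without SZ-A replicates 2 and 7. The 7 endothelial markers summed to 9.81 to 514 FPKM in NC, 84.7 to 413 FPKM in HFD and 191 to 766 FPKM in SZ-A mice, and 0 of 7 passed between any pair of groups. The 3 mesothelial genes read here (Krt18, Krt19 and Lrrn4; the other 6 of the list were not analysed here) summed to 21.6 to 556 FPKM in NC, 4.29 to 17.3 FPKM in HFD and 0.494 to 209 FPKM in SZ-A mice. Of 11 epididymal genes, Adgrg2 alone was read, at 5.69 to 420 FPKM in NC, 0.789 to 1.75 FPKM in HFD and 1.80 to 103 FPKM in SZ-A mice. Macrophage markers, with 566 to 1830.0 FPKM in SZ-A mice, were lower than in HFD mice for 10 of 10 genes. All but Dpp4 of the 10 genes described here had that direction, for which part of them were chosen. The part of these cells in the levels of the 10 genes was not tested.

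**Figure D4:**
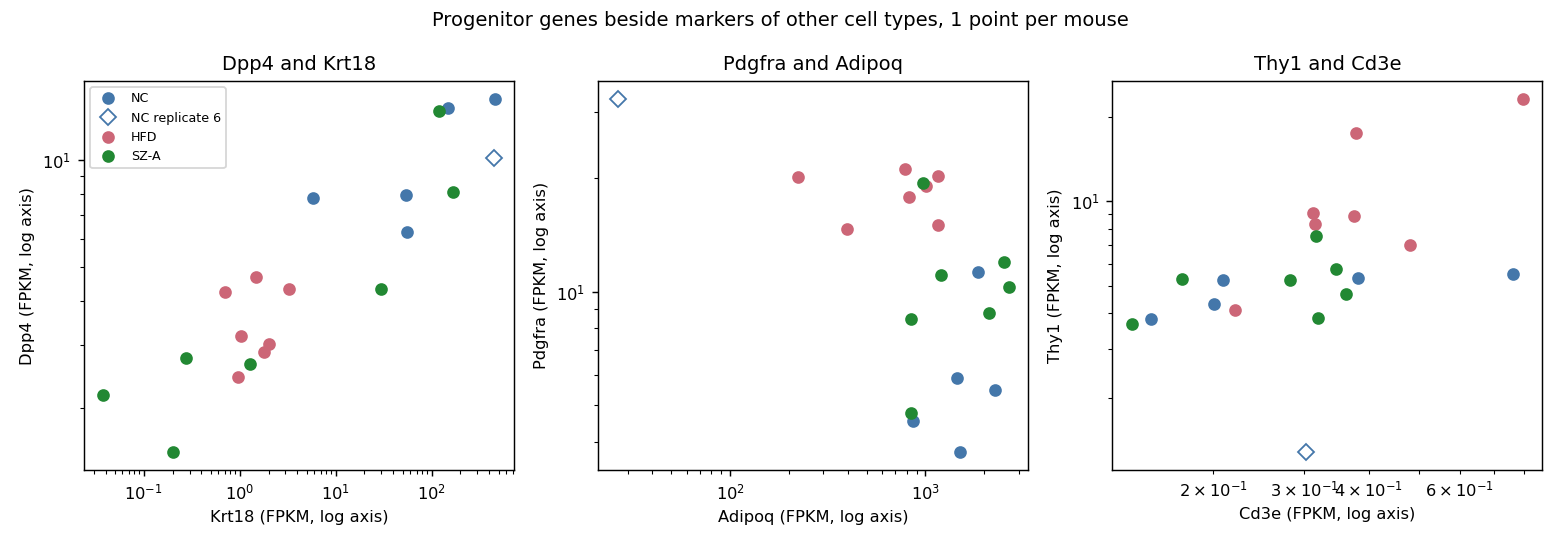
Dpp4 beside the epithelial keratin Krt18, Pdgfra beside the adipocyte gene Adipoq, and Thy1 beside the T cell gene Cd3e, in FPKM on log axes, 1 point per mouse. The 5 mice with over 100 FPKM of Krt18 had 8.10 to 14.9 FPKM of Dpp4, NC replicate 6 combined the lowest Adipoq (26.6 FPKM) with the highest Pdgfra (32.5 FPKM), and HFD replicate 1 had the highest Thy1 (23.1 FPKM).

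Of 7 lists of related genes, 76 of 80 genes were tested, and 39 rose and 6 fell in HFD over NC mice (adjusted p under 0.05 by limma, beside 21.0% and 20.1% of all genes). Between SZ-A and HFD mice, 2 of the 76 rose and 30 fell, beside 9.47% and 13.3% of the 14695 genes tested. Between SZ-A and NC mice 4 rose (Cd248, Dpp7, Prcp and Glipr1) and 0 fell, beside 4.15% and 0.455% of all genes. Without the 5 libraries high in Krt18, which left 3 NC and 5 SZ-A mice, 0 rose, beside 0.885% of all genes. The medians of the 76 genes were 0.68 in HFD against NC and -0.33 in SZ-A against HFD mice, where those of all genes were -0.04 and 0.03. These lists were written with earlier results of the data known, so the counts are a description.

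The interstitial progenitor list, which names genes found with Dpp4 and Pi16 in this population, held 13 genes. In HFD over NC mice 2 of them rose, where 21.0% of all genes did, Cd248 (endosialin, 3.32, adjusted p = 5.70e-05) and the ligand Wnt2 (0.66, adjusted p = 0.00336), and 2 fell, where 20.1% of all genes did, the ligand Bmp7 (-1.60, adjusted p = 0.0240) and Efhd1 (-0.74, adjusted p = 0.0447, all by limma). The other 9 did not pass. Wnt2 was near the floor, with means of 0.188 FPKM in NC mice (1 to 14 reads) and 0.919 FPKM in HFD mice. Without the 5 libraries high in Krt18, Cd248 was 2.58 higher (adjusted p = 5.45e-06) and Bmp7 was at -0.81 (adjusted p = 0.0309, limma). Between SZ-A and HFD mice Cd248 fell by 1.38 (adjusted p = 3.69e-04) and Wnt2 fell by 0.48 (adjusted p = 0.0351, limma). Cd248 was 1.94 higher in SZ-A than in NC mice (adjusted p = 0.0214), and 1.25 without the 5 libraries high in Krt18, where it did not pass (adjusted p = 0.0547, limma).

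Among 6 genes of committed preadipocytes, Icam1, an adhesion molecule that inflammation induces in many cells, rose by 1.52 in HFD mice (adjusted p = 6.31e-04), and the proteoglycan Sdc1 rose by 1.81 (adjusted p = 0.0162), or 2.43 without NC replicate 6 (adjusted p = 4.0e-07, limma). Agt, which encodes angiotensinogen, fell by 2.46 (adjusted p = 1.48e-04) and Dlk1, an inhibitor of fat cell formation, fell by 0.24 (adjusted p = 0.0484, limma). Dlk1 was near the floor, with means of 0.285 FPKM in NC mice and 0.0785 FPKM in HFD mice (3 to 13 reads). With SZ-A the directions of Icam1 (-0.78, adjusted p = 0.00114) and Agt (1.66, adjusted p = 0.00117, limma) were opposite to those on the diet. Among 9 genes of CD142 stromal cells, 4 rose in HFD mice and 0 fell, led by the matrix protein Mgp (2.57) and the globin Cygb (1.92, and 1.04 without the 5 libraries high in Krt18), and 3 fell with SZ-A, led by Mgp (-1.55, adjusted p = 0.00267, limma) and the sterol transporter Abcg1 (-0.79), which macrophages also use.

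General fibroblast genes are expressed across stromal populations. Of 14 tested, 10 rose in HFD over NC mice and 0 fell, with and without NC replicate 6, led by the collagen-binding proteoglycan Lum (3.62, adjusted p = 3.32e-04) and Serpinf1 (3.10, adjusted p = 0.00100, limma). NC replicate 6 had the lowest level of both among NC mice, and without it Lum rose by 3.01 and Serpinf1 by 2.43. Without the 5 libraries high in Krt18 these rises were 2.47 and 2.16. Between SZ-A and HFD mice 10 of 14 fell, led by Lum (-1.94, adjusted p = 3.69e-04) and the matrix protein Fbln1 (-1.40, adjusted p = 3.79e-04, limma), and 0 rose. Between SZ-A and NC mice 0 of 14 passed, and 3 rose without NC replicate 6. Of 7 genes of activated fibroblasts, 4 rose in HFD mice, led by fibronectin (Fn1, 2.66) and periostin (Postn, 2.12), which were 1.71 and 1.2 higher without the 5 libraries high in Krt18. In SZ-A against HFD mice 3 fell, led by Fn1 (-1.43) and the metalloproteinase Adam12 (-1.26, adjusted p = 3.25e-04, limma).

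Of the 4 PDGF ligands, 2 passed the test between HFD and NC mice. Pdgfa, which binds PDGFRα, was at 5.69 ± 1.14 FPKM (SD, n = 6) in NC and 9.80 ± 1.54 FPKM (SD, n = 7) in HFD mice, a rise of 0.70 (adjusted p = 0.00115, limma). Pdgfc rose by 0.64 (adjusted p = 0.00515), and without the 5 libraries high in Krt18 its difference was 0.45 and did not pass (adjusted p = 0.0538, limma). Pdgfb, the ligand of both receptors, had a difference of 0.87 (adjusted p = 0.0952) and Pdgfd, a ligand of PDGFRβ, of 0.08 (adjusted p = 0.831, limma). Between SZ-A and HFD mice the 4 ligands had differences of -0.33 to 0.01, with adjusted p of 0.202 to 0.984 from limma. Of the 11 genes for ligands and signalling, 6 rose and 1 fell in HFD mice, led by the ubiquitin ligase Cbl (1.33, adjusted p = 1.40e-05) and the adaptor Grb2 (1.31, adjusted p = 2.78e-05, limma), with the phospholipase Plcg1 lower (-0.74). With SZ-A, 3 fell, led by Cbl (-0.72) and Grb2 (-0.60, which did not pass without SZ-A replicates 2 and 7), and Plcg1 rose by 0.62 (adjusted p = 0.0151, limma).

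Relatives by protein family were mostly higher in HFD mice. Of 16 relatives, 11 rose in HFD over NC mice and 1 fell, Crispld1 (-0.34), whereas 7 rose and 2 fell without the 5 libraries high in Krt18. Glipr1, a CAP family relative of Pi16, rose by 4.11 (adjusted p = 3.07e-07) and Plxdc1, the paralog of Plxdc2, by 2.71 (adjusted p = 1.55e-06, limma). The peptidases related to Dpp4 and Fap, Dpp7, Dpp8, Dpp9, Prep and Prcp, all rose, by 0.43 (Dpp8) to 2.18 (Dpp7), though Dpp8 did not pass without the 5 libraries high in Krt18. Between SZ-A and HFD mice 8 of 16 fell and 0 rose, led by Glipr1 (-2.0, adjusted p = 9.48e-04) and the carboxypeptidase Cpe (-1.62, adjusted p = 0.00235, limma). Glipr1 and Prcp are also expressed in macrophages, and their part was not tested.

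**Figure D5:**
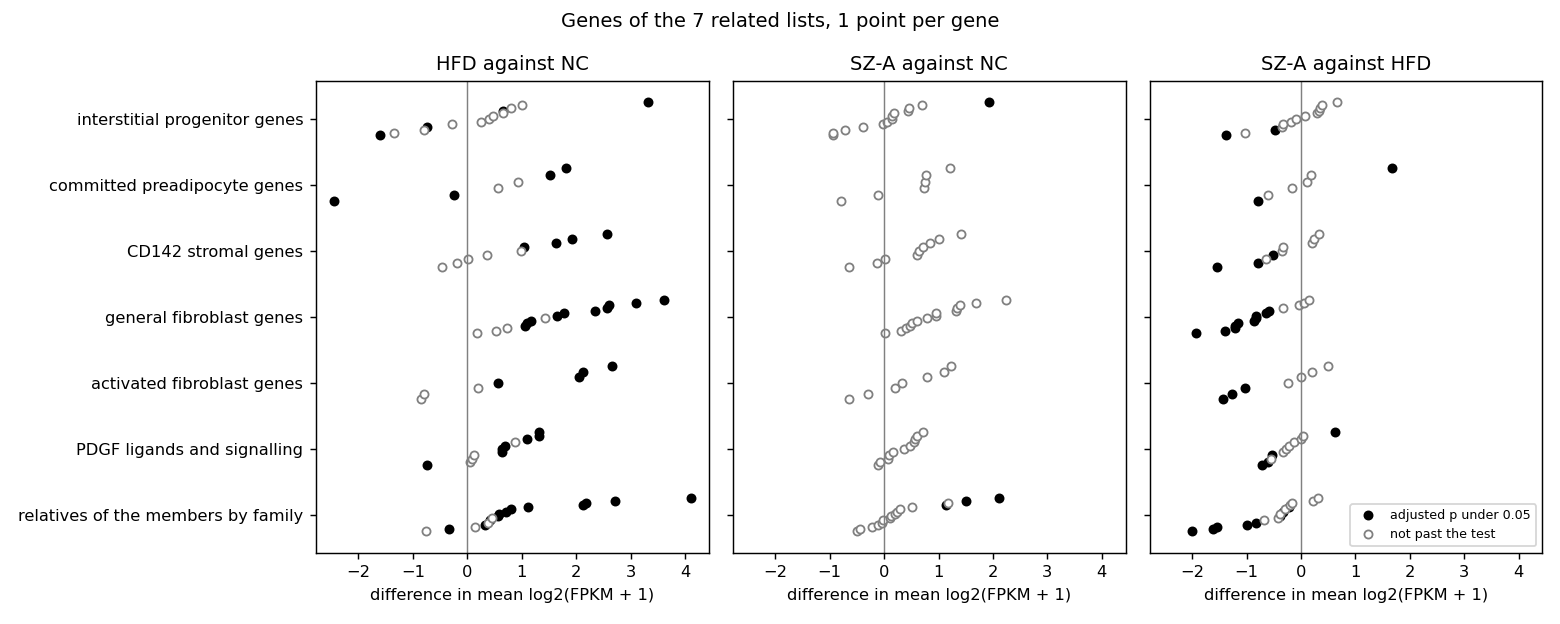
Difference in mean log2(FPKM + 1) for the genes of the 7 related lists in the 3 comparisons, 1 point per gene; filled points passed an adjusted p of 0.05 and open points did not. General fibroblast genes lay above 0 in HFD against NC (10 of 14 passed) and 10 of 14 passed below 0 in SZ-A against HFD.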

How the data were processed

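RNA of eWAT from 20 mice was sequenced by the authors as paired-end reads, aligned to GRCm38 with HISAT2 and counted with featureCounts 1.5.0-p3, according to the paper's methods and the submitters' processing notes. The labels give 6 NC, 7 HFD and 7 SZ-A mice, where the paper gives 7 in each group. The authors deposited 1 table of FPKM, with 14776 genes that were each above 0 in all 20 mice, and 0 of its columns were unused. The annotation release and the gene filter are not given in the sources used here. The authors compared groups with DESeq2, which was not used here. Exon lengths, positions and symbols came from GENCODE M21 (14770 genes matched, 6 did not). FPKM multiplied by exon length gave whole reads within 0.01 reads for 95.9% to 96.3% of values under 1000 reads.

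Pairs of groups were compared with limma 3.58.1 in R 4.3.3 (lmFit and eBayes with a trend) on log2(FPKM + 1), and genes whose mean was under 0.1 FPKM in the mice compared were left out. Benjamini-Hochberg adjustment ran over all genes tested, and fold changes on this scale understate those of low genes. The p-values set differences between groups against the spread between mice, which limma moderates across genes. A call needed an adjusted p under 0.05, and the stricter call also a log2 fold change above 1.5. The steps were tested on simulated data. Differences to Pdgfra were tested by exact permutation. The alternatives were a pseudocount of 0.1, no filter or one at 1 FPKM, scaling by median ratios, a fit of all 3 groups, voom on the recovered reads, a replicate block, the adjusted p alone, and leaving out each mouse or the libraries high in Krt18. The named genes are the 10 genes, the PDGF ligands, up to 2 called genes in each direction per list and comparison, and the genes most like each member. The 10 genes and the lists were chosen with earlier results of these data known. Python 3.11.15, pandas 2.3.3, NumPy 2.4.6, SciPy 1.17.1 and matplotlib 3.10.9 were used.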

Additional observations from a re-analysis of the deposited data

Results flagged for a closer look

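In 4 of 30 sets of 1 gene in 1 group, a single mouse was far from the others on the log2(FPKM + 1) scale by Dixon's ratio of its gap to the group's range, where chance gives about 1 set in 20. NC replicate 6 was low for Dpt, with 3.54 FPKM against 64.9 FPKM in the next mouse (ratio 0.715), and for Thy1, with 1.28 against 3.83 FPKM (ratio 0.713). HFD replicate 1 was high for Fap, with 5.20 against 3.42 FPKM (ratio 0.59). SZ-A replicate 7 was low for Fap, with 0.990 against 1.87 FPKM (ratio 0.672).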

How the results depend on the processing

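Of 238 recomputed counts of called genes, 205 stayed within 1.5 times the count first given, and of 784 recomputed single values 730 kept their direction and side of the threshold. For the rest the cause was not tested. Under the stricter call, the members higher in HFD over NC mice numbered 3 to 6 when single mice were left out, 3 without the libraries high in Krt18 and 9 by the adjusted p alone, against 5, and those lower 1 by the adjusted p alone, against 0. Among the 7 related lists, the genes called higher in HFD over NC mice numbered 39 by the adjusted p alone, against 20, and those lower 6, against 2. Without single mice they were 15 to 20 and 1 to 3, and 1 was lower without the libraries high in Krt18. Between SZ-A and NC mice the lists had 3 higher, 1 to 6 without single mice, 5 in a fit of all 3 groups and 0 without the libraries high in Krt18. Between SZ-A and HFD mice 2 were higher and 30 lower by the adjusted p alone, against 1 and 5, and 2 to 6 were lower without single mice.

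Of the differences to Pdgfra between HFD and NC mice, 2 passed, 1 with a pseudocount of 0.1 and 1 to 3 without single mice. Without the libraries high in Krt18 the count was 0, but 3 against 7 mice can give a pass only if at least 4 differences reach the smallest p, 0.0167, so this says nothing about stability. Without the libraries high in Krt18 the sign turned for Pdgfrb (-0.11), Plxdc2 (-0.15), Dpt (-0.44), Fap (-0.53) and Thy1 (-0.39). Without single mice these ran from -0.013 to 1.15 for Pdgfrb, -0.10 to 0.44 for Plxdc2, -0.34 to 1.22 for Dpt, -0.54 to 0.17 for Fap and -0.61 to 0.25 for Thy1. Plxdc2 in SZ-A against NC mice was -0.062 without the libraries high in Krt18. The rise of Dpt in HFD over NC mice was not called by voom on recovered reads (adjusted p = 0.0617).

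The mice share replicate numbers between groups, but the numbers did not pair them: the deviations of same-numbered mice correlated above 0.1 in 1 of 6 pairs of HFD and NC mice, 2 of 6 of SZ-A and NC mice and 3 of 7 of SZ-A and HFD mice, and a mouse correlated best with its own number in 0, 1 and 0 pairs. With the replicate block, 4 members passed the stricter call in HFD over NC mice, against 5, and the calls of Pdgfra (adjusted p = 0.0713) and Dpt (adjusted p = 0.0635, limma) were lost. Related genes lower in HFD than in NC mice then numbered 1, and those higher in SZ-A than in NC mice 1, and no other call of a member changed. Depth limits Fap most, which had 9 reads in NC replicate 6.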

Other observations

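Across mice, after the mean of each group was subtracted, the 10 genes did not vary as 1 set. The 28 pairs with neither Dpp4 nor Pdgfra had a median Pearson correlation of 0.63 over 20 mice (0.13 to 0.90), the 9 pairs with Dpp4 had -0.28 (-0.46 to 0.20), and the 8 other pairs with Pdgfra had -0.51 (-0.62 to 0.28). Without NC replicate 6 these medians were 0.42, -0.30 and 0.33 over 19 mice, so the sign of the pairs with Pdgfra rests on that library. The mice share their library and scaling between genes, and these values are a description.

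The genes most like each one by the same measure, over 20 mice, were as follows. Oxr1 (0.94), Prrx1 (0.91), Sall2 (0.91), St3gal2 (0.91) and Skil (0.91) were most like Pdgfra, and Stag1 (0.92) led without NC replicate 6. Pdgfrb was most like Lrp1 (0.97), Dpp4 like the carboxypeptidase Cpm (0.92), Pi16 like the class II gene H2-Ab1 (0.93) and Aebp1 like complement C3 (0.94). Cpxm1 was most like Entpd2 (0.93), Plxdc2 like Ppp6r3 (0.90), Dpt like Sparc (0.98), Fap like Aida (0.93) and Thy1 like Bst1 (0.91). Without NC replicate 6 the same gene led for Aebp1 (C3, 0.81), Plxdc2 (Ppp6r3, 0.92) and Thy1 (Bst1, 0.92), and another gene led for the other 6.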
